A study of Mus musculus with 10 samples.

Results

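The control tumors of the study are 5 colon tumors from mice with the genotype Wls control (Wls flox/flox), numbered 1 to 5 by their labels, and they are described here on their own, gene by gene. The tumors had been induced in C57BL/6 mice by azoxymethane (AOM), a carcinogen that acts on the colon, followed by repeated cycles of dextran sulfate sodium (DSS), a polymer in the drinking water that injures the colon lining. These mice carried the floxed Wls allele without a stated Cre driver, and the legend of the study gives tumors without tamoxifen as controls unless otherwise indicated. The series holds 10 tumors, the other 5 from mice in which Wls, the carrier protein of secreted Wnt ligands, was deleted in the epithelium, and these were not analysed here. Tumors were macrodissected and frozen, and mRNA was sequenced from stranded libraries. The number of mice behind the 5 tumors is not stated, so n counts tumors, and part of the spread may lie between tumors of the same animal.

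Each value is an FPKM, a count of fragments scaled by transcript length and by the mapped reads of the library, as deposited. The table holds 16875 gene names. Where names had identical values in all 5 tumors they were joined into 1 row, because the values do not say which of the genes was expressed, and this left 15445 rows. The genes described are the 15050 rows with 16420 names whose FPKM averaged 0.5 or more in the control tumors, while 395 rows lay below. The lowest mean kept was 0.5005 and the highest mean left out was 0.4995. Among the rows kept, 985 carried several names, 2355 in all, and they are given below with all of their names. A total of 235 rows were listed at 0 in at least 1 tumor.

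The colon surface is lined by absorptive colonocytes, mucus-producing goblet cells, hormone-producing enteroendocrine cells and rare tuft cells, all of which arise from crypt stem cells that are kept dividing by Wnt signalling. In the AOM/DSS model, mutation and repeated injury together give tumors of the distal colon in which epithelium is mixed with stroma, vessels and many immune cells. RNA of a whole tumor is a mixture of all of these, and fewer cells of a type and less RNA per cell cannot be told apart in it. Spread between tumors of 1 group therefore covers differences in cell makeup and in expression.

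The markers of the labelled tissue were present in every tumor. Epcam, the epithelial adhesion molecule, had FPKM of 1043, 985, 1016, 923 and 964 in tumors 1 to 5, and Vil1, which encodes villin of the brush border, had 158, 124, 139, 93.6 and 109.5. Hoxb13, a homeobox gene of the hindgut, was at 129, 138, 123, 105 and 142 and Hoxd13, its distal paralog in another cluster, at 70.9, 111, 85.4, 101 and 115. Wls itself stood at 76.4, 72.4, 61.3, 74.7 and 79.9, with an SD of 0.14 on the log2(FPKM + 1) scale, so all 5 tumors carried the transcript that the genotype leaves intact. The epithelial marker list as a whole lay high in the table, with a median rank in the top 2.76% of rows by mean FPKM.

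Sums of FPKM over the rows lay between 885841 and 1015660 per tumor and medians between 11.4 and 12. Read numbers behind the values are unknown, so no counting error could be given, and precision rests on the 5 tumors. Across genes, Pearson's r of the log2(FPKM + 1) values was lowest for tumors 1 and 3, at 0.956, and highest for tumors 2 and 5, at 0.977. Genes are not independent replicates, and these values describe the table only.

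A small number of rows held a large share of the FPKM sum. The 10 most abundant rows took 36.4% ± 2.60 (SD, n = 5) of it, between 33.7% and 39.7% per tumor, the first 100 took 49.3% ± 2.56, and the first 1000 took 71.9% ± 1.66. Rows of at least 10 FPKM numbered 8163, rows of at least 100 numbered 1112, and rows of at least 1000 numbered 62. Most of the top share came from the row Eef1a1/Gm26377, which pairs the translation elongation factor gene Eef1a1 (chr9:78478449-78489151, GRCm38, GENCODE M21 annotation) with a small RNA gene and was at 313888, 211913, 270948, 261291 and 211213. It alone made up 26.9% ± 3.05 of the sum and between 23.7% and 30.9% per tumor. The values of the row cannot be split between its names.

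**Figure D1:**
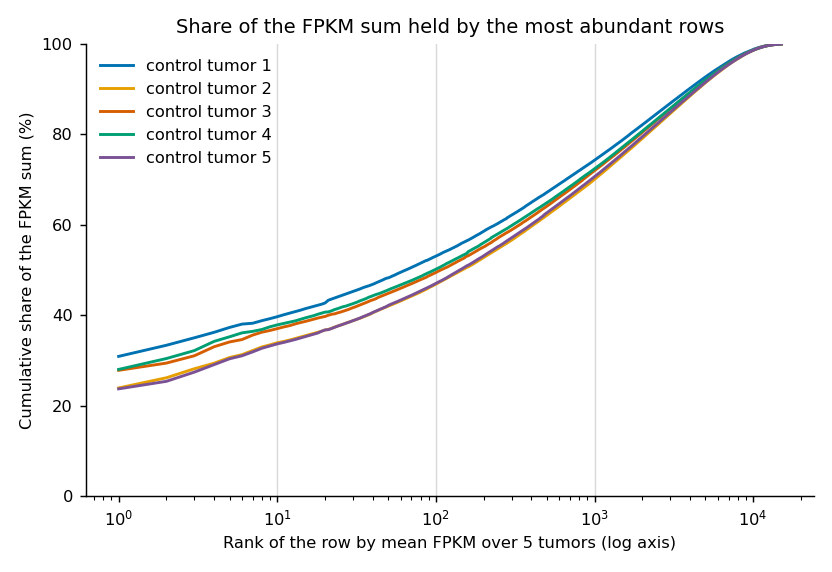
Cumulative share of the FPKM sum (%, vertical axis from 0) against the rank of the row by mean FPKM over 5 tumors (log axis), with a line for each control tumor. The first row alone stands at 23.7% to 30.9% and the first 100 rows at 46.9% to 53.1%, with tumor 1 the highest.

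Behind that row came mmu-mir-703 with 24972, 19944, 15597, 22446 and 14847, Gm14303 with 16792, 17666, 15741, 16391 and 18115 and Gm3788 with 12332, 10932, 19510.3, 19015 and 14742, a micro-RNA name and predicted pseudogenes. The first row of a known protein-coding gene alone was S100a6, a calcium-binding protein (chr3:90612882-90624181), at 10914, 11049, 10251, 9434 and 11522. Rows of the mitochondrial genome followed, with mt-Nd1 and its neighbours at 7533, 5673, 5226, 8149 and 5976 and mt-Cytb/mt-Tt at 4522, 4151, 3698, 5597 and 4464. Genes of colon epithelium stood among the first 15. Spink4, a protease inhibitor secreted by goblet cells (chr4:40920052-40931395), was at 1918, 8081, 9586, 3086 and 7644 and ranked 7 by mean. Lypd8, a surface protein of colonocytes that holds bacteria off the lining (chr11:58379043-58390728), was at 5796, 6958, 6253, 3811 and 7147 and ranked 8. The keratin row Krt13/Krt17/Krt19, which holds the keratin of simple epithelium Krt19, was at 3381, 3004, 3649, 2317 and 2781. The other rows among the first 15 were Acads/Rpl37rt, a ribosomal protein row with Rpl13a, Tmsb4x, which encodes the actin-binding thymosin beta 4, Gm14539 and a clone-named row.

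Neighbours in this order were seldom separated. For 12 of the 14 neighbouring pairs among the 15 highest rows the ranges over 5 tumors overlapped. Of the 100 most abundant rows of each tumor, 80 were shared by all 5 tumors and 129 appeared in at least 1. Rows with at least 1 small RNA name numbered 375 and held 33.7% ± 3.30 of the FPKM sum. The row Eef1a1/Gm26377 is among the 375 and alone held 26.9% ± 3.05. The rows with mt-Nd1 and mt-Cytb are also among them. The 1942 rows with only predicted names held 11.2% ± 0.492. The 83 rows of cytosolic ribosomal proteins held 3.63% ± 0.209, and the 3 mitochondrial rows held 1.18% ± 0.200. For that reason the wide rows described next are given with and without rows of small RNA or predicted names.

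Tumor-to-tumor spread was expressed as the SD of log2(FPKM + 1) over the 5 tumors. The median row had an SD of 0.190, with quartiles at 0.123 and 0.308, and a range between its highest and lowest tumor of 0.471 on the log2 scale, or 1.39-fold. An SD over 5 tumors is itself imprecise, and its 95% interval runs from 0.599 to 2.87 times the value if the logs are normally distributed. SDs under 0.1 were found in 2327 rows (15.5%), and 287 rows (1.91%) had an SD of at least 1, of which 47 reached 2. With a pseudocount of 0.1 in place of 1, 711 rows had such an SD. The median SD was 0.282 for rows of mean FPKM 1 to 5 and 0.145 for rows of 50 to 1000, so SDs were also divided by the running median of the 500 rows of nearest mean, which gives an SD over trend of 1 for a row as wide as its neighbours.

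**Figure D2:**
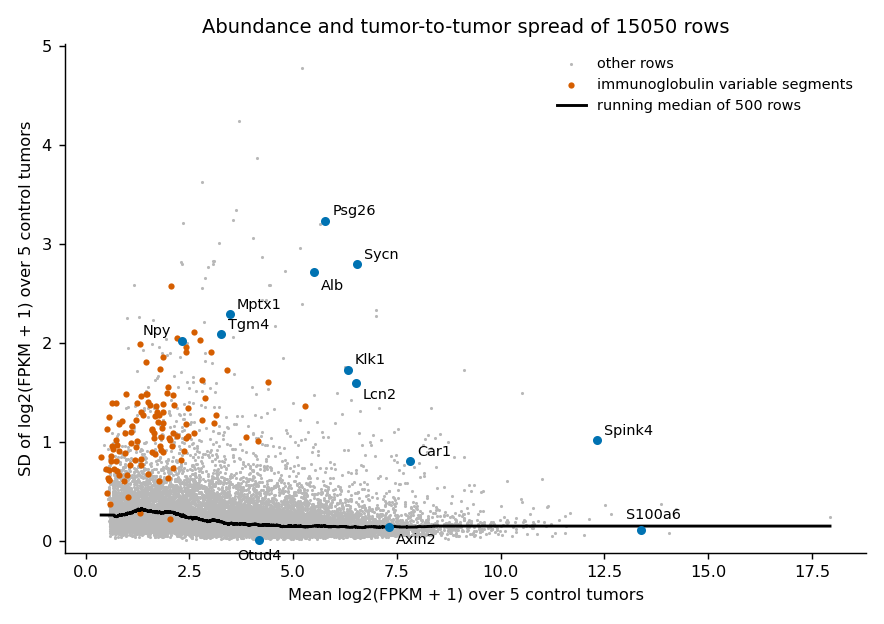
SD of log2(FPKM + 1) over 5 tumors against the mean log2(FPKM + 1) for 15050 rows, each a point, with the running median of 500 rows as a line, immunoglobulin variable segments in orange and single named genes in blue. Immunoglobulin variable segments and named genes such as Psg26, Sycn and Alb lie far above the line.

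Rows of small RNA and predicted names took most of the very widest places. Among the 15 rows of largest SD over the whole table, 13 had only small RNA or predicted names, against 43 of the 100 of largest SD, and small RNA rows reached an SD of 1 in 57 of 375 cases (15.2%). Without small RNA rows and rows of only predicted names, 191 rows of an SD of at least 1 remained. Of these, 70 had an immunoglobulin gene as their first name and 121 did not. The 121 still include the row AC120404.1/Igkv19-93, which holds an immunoglobulin segment. Psg26, a pregnancy-specific glycoprotein gene (chr7:18474582-18484177), was listed at 0 in tumor 1 and at 139, 177, 160 and 122 in tumors 2 to 5 (SD 3.24). Alb, the gene of serum albumin (chr5:90460897-90476602), was at 3.95, 7.66, 76.6, 441 and 126 (SD 2.72). Tumor 4 was the highest for Alb and tumor 1 the lowest. The list of pancreas and liver markers, of which Alb is 1 of 6 rows, averaged 5.09, 5.24, 5.62, 5.90 and 5.75 on the log2 scale. Its row Gm20425/Srprb/Trf, with the transferrin gene, was at 45.1, 41.9, 89.5, 91.7 and 68.0 and had tumors 3, 4 and 5 as highest, as Alb did. Ttr, the transthyretin gene, was at 36.4, 23.7, 15.8, 8.76 and 19.0, and the lipase row Pnlip/Pnliprp2 was at 440.2, 373, 151, 286 and 186, both highest in tumor 1. The elastase gene Cela1 was at 116, 218, 225, 128 and 191 and Apoa2, an apolipoprotein, at 2.52, 2.84, 2.44, 2.03 and 2.85.

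To describe which tumors were high for a gene, its 5 log2 values were ordered and divided at the widest gap between neighbours. The tumors above that gap are called its high tumors. Over all 15050 rows, tumors 2, 3 and 5 together were the high tumors of 4.59% of rows, tumor 3 alone of 9.16%, tumor 1 alone of 7.71% and tumor 4 alone of 5.09%. Tumors 1 and 4 were the high tumors of 2.57% of rows, tumors 3 and 4 of 2.47%, tumors 3, 4 and 5 of 2.42%, and tumors 1, 3 and 4 of 2.63%. The highest value of a row lay in tumor 1 for 20% of rows, in tumor 2 for 20.8%, in tumor 3 for 25.7%, in tumor 4 for 18.0% and in tumor 5 for 15.6%. The lowest value lay in tumor 1 for 24.3%, in tumor 2 for 16.5%, in tumor 3 for 19.2%, in tumor 4 for 22.9% and in tumor 5 for 17.2%. Counts over gene lists below are to be read against these shares. No test was made, since there is a single group of tumors. Directions of lists were also read under 5 settings, which were the values as deposited, a pseudocount of 0.1 in place of 1, rescaling of each tumor to a common FPKM sum, rescaling by median ratios, and quantile normalization. Beyond the 2 most abundant and the 2 widest rows of each list, the members named were chosen after their values were seen.

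Goblet cell genes split the tumors into tumors 2, 3 and 5 against tumors 1 and 4. All 16 rows of the goblet list passed the minimum, and 10 of them had exactly tumors 2, 3 and 5 as high tumors, against 4.59% of all rows. The mean log2(FPKM + 1) of the list was 4.78, 5.97, 6.37, 5.08 and 6.33 in tumors 1 to 5. Tumor 1 was the lowest, and tumors 3 and 5 changed places as the highest under rescaling to a common sum and under quantile normalization. The median SD of the list was 0.821, 5.29 times that of rows of like mean.

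Most secreted products named here showed the split. Muc2, the gel-forming mucin of the colon mucus, was at 51.0, 114, 169, 60.8 and 153. Tff3, the trefoil peptide that goblet cells secrete with mucin, was at 271, 711, 850.4, 327 and 998, and Spink4 (values above) was also lowest in tumors 1 and 4. Agr2, the endoplasmic reticulum enzyme needed to fold mucin, was at 100.3, 347, 489, 198 and 484. In each of these the lowest of tumors 2, 3 and 5 stood above the higher of tumors 1 and 4. The kallikrein row Klk1/Klk1b22/Klk1b24 was wider, at 18.2, 93.8, 244, 27.2 and 254 (SD 1.73). The transcription factors of the lineage showed the same split, with Atoh1, which commits progenitors to secretory fates, at 1.87, 8.71, 7.19, 1.82 and 10.3 and Spdef, which acts in goblet maturation, at 2.11, 10.9, 12.1, 4.42 and 14.4. Retnlb, a resistin-like antibacterial peptide of goblet cells (chr16:48816856-48818892), was an exception at 0.786, 0.444, 23.5, 2.5 and 6.49 (SD 1.67), with tumor 3 far above the others. Ang4, an antimicrobial ribonuclease, was highest in tumor 2, at 47.2, 145, 40.9, 67.3 and 36.0.

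Enteroendocrine genes had the same split at lower levels. The list had 7 rows past the minimum of 14 genes, and in 6 of the 7 tumors 2, 3 and 5 were the high tumors, again against 4.59% of all rows. Pyy, which encodes the satiety hormone peptide YY (chr11:102106676-102107832), was at 12.5, 75, 142, 16.8 and 72.8 (SD 1.47). Chgb, a granin of hormone granules (chr2:132781278-132795079), was at 0.793, 5.67, 10.1, 0.913 and 6.57, and its relative Chga was at 0.808, 5.32, 5.96, 0.930 and 5.81. Insl5, an insulin-like peptide of distal colon L cells (chr4:103017872-103026842), was at 0.444, 3.93, 9.15, 0.241 and 6.35. Gcg, the precursor gene of glucagon-like peptides, was at 0.412, 1.64, 2.94, 0.0742 and 3.38, and Tph1, the enzyme of serotonin synthesis in the gut, at 0.134, 1.74, 1.71, 0.311 and 1.68. Only Cck of the 7 did not show it, at 1.85, 2.0, 3.08, 3.17 and 3.74. The list mean on the log2 scale was 1.17, 2.63, 3.17, 1.27 and 2.94, a range of 2.01 and the widest range of the lists with at least 4 rows under all 5 settings.

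Genes of absorptive colonocytes were mixed. Of 17 rows, 7 had tumors 2, 3 and 5 as high tumors, against 4.59% of all rows. In 4 more, tumor 1 was high with them, against 7.18%. Car4, a membrane carbonic anhydrase of surface colonocytes (chr11:84957786-84966044), was at 2.36, 7.10, 25.7, 2.54 and 17.0 (SD 1.35), and Slc26a3, the chloride-bicarbonate exchanger (chr12:31390871-31473917), was at 1.31, 8.42, 14.7, 1.17 and 7.24 (SD 1.28). Aqp8, a water channel, was at 0.795, 6.20, 5.76, 1.51 and 5.85, and Guca2a, the guanylin gene, was at 59.6, 133, 134, 47.7 and 114. The mucin row Gm3054/Muc3 was at 54.1, 119.6, 248, 36.0 and 132. Others did not share the split. Car1, the cytosolic carbonic anhydrase of colonocytes, was at 606, 154, 188, 192 and 172, highest in tumor 1, and Saa1, an acute-phase apolipoprotein made by colon epithelium, was at 455, 560.4, 744, 337 and 795. Cyp2c55, a cytochrome P450, was lowest in tumor 4, at 13.2, 7.44, 8.89, 0.744 and 3.25. The list mean was 3.78, 4.33, 4.6, 3.40 and 4.30, lowest in tumor 4 under all 5 settings.

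**Figure D3:**
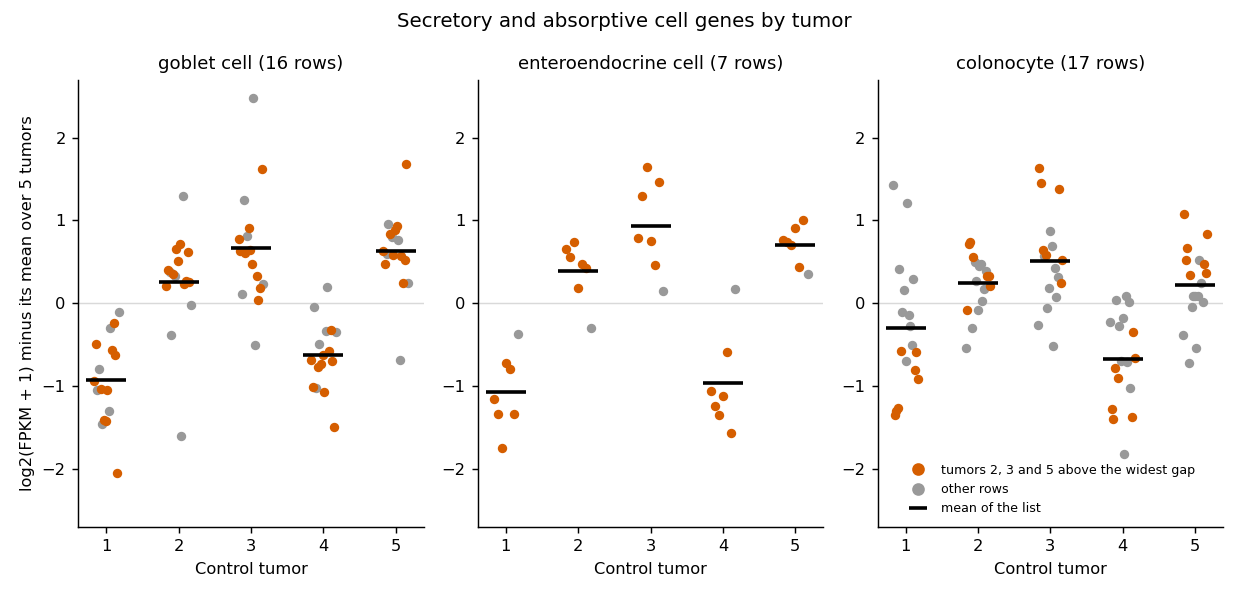
Values of log2(FPKM + 1) of goblet cell, enteroendocrine and colonocyte list rows in the 5 control tumors, each minus the mean of its row over the 5 tumors, with rows that have tumors 2, 3 and 5 as high tumors in orange, other rows in gray and the mean of the list as a bar. The goblet and enteroendocrine bars sit higher in tumors 2, 3 and 5 than in tumors 1 and 4.

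Some wide genes outside these lists had the same high tumors. Of the 121 wide rows without an immunoglobulin gene as first name, 28 had tumors 2, 3 and 5 as high tumors. The share with these high tumors was 4.59% over all rows. It was 13.6% over the 500 widest rows left without small RNA rows and rows of only predicted names. Of the 28, 9 belong to the goblet, enteroendocrine or colonocyte list and 19 do not. The following genes were chosen from the 19 after their values were seen. Best2, a bestrophin channel of goblet cells, was at 1.14, 9.62, 11.6, 1.04 and 12.2. Adh1, an alcohol dehydrogenase, was at 24.4, 116, 156, 17.5 and 148, and B3gnt7, a glycosyltransferase, was at 4.15, 35.5, 100.2, 9.29 and 74.5. Pigr, the receptor that carries IgA across the epithelium, was at 52.9, 216, 253, 77.1 and 219. Slc5a8, a transporter of short-chain fatty acids, was at 0.518, 5.70, 10.8, 2.03 and 8.66, and Hsd11b2, which inactivates glucocorticoid, was at 10.8, 43.2, 56.1, 15.1 and 52.8. In all 6 the 3 high tumors did not overlap the other 2. Sycn, the zymogen granule protein syncollin (chr7:28540885-28542209), which is not among the 28, was at 3.39, 221, 419, 42.2 and 393 (SD 2.80), but its widest gap set tumor 1 apart from all others, with tumor 4 next. Mptx1, a mucosal pentraxin (chr1:174330518-174332873), was at 0.240, 71.2, 17.4, 3.28 and 23.1 (SD 2.29).

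The promoters of Sycn, Slc26a3, Car4 and Pyy, which were all highest in tumors 2, 3 and 5, and of Fos and Ptgs2, which were highest in tumor 3 and are described further on, are shown so that the start regions of genes high in the same tumors can be compared. Each is 300 bases, from 250 before to 50 after the first start that RefSeq lists for the symbol (GRCm38.p6), 5′ to 3′ on the strand of the gene, and capitals mark the letters TATAAA where they begin 45 to 20 bases before the start. Sycn lies at chr7:28540635-28540934, Slc26a3 at chr12:31437969-31438268, Car4 at chr11:84957504-84957803, Pyy at chr11:102107783-102108082, Fos at chr12:85473640-85473939 and Ptgs2 at chr1:150099781-150100080. For Slc26a3 the window lies inside the span that GENCODE gives the gene.
Sycn: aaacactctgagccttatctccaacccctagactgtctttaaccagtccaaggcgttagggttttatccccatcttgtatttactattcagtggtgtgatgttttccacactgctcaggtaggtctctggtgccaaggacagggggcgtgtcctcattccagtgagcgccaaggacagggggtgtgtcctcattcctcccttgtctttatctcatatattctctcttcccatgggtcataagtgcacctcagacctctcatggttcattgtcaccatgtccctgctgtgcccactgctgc
Slc26a3: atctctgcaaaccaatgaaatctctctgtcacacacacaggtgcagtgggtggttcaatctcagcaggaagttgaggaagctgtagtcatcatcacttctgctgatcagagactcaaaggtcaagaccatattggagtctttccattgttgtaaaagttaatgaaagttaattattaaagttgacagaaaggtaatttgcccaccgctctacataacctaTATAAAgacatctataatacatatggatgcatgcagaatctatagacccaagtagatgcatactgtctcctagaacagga
Car4: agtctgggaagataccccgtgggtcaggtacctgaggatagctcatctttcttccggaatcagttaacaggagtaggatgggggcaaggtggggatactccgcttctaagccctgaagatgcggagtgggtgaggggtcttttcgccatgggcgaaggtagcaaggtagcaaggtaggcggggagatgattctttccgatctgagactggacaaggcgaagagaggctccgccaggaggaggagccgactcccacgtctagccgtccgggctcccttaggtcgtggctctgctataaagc
Pyy: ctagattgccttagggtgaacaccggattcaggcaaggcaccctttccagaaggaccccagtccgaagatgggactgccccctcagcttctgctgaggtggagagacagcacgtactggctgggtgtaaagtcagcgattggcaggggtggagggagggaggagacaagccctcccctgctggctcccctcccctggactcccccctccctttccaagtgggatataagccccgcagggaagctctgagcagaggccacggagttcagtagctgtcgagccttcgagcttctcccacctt
Fos: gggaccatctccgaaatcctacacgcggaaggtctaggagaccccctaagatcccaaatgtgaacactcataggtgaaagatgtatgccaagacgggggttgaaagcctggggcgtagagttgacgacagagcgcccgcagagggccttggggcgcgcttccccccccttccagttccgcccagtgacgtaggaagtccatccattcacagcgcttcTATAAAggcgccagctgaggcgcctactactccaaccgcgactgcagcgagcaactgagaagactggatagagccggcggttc
Ptgs2: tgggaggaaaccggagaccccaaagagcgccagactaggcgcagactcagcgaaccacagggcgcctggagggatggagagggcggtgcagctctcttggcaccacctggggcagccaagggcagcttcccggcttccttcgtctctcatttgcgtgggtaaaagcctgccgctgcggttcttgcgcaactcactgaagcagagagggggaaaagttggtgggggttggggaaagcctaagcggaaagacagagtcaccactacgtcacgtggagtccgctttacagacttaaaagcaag

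TATAAA in that window and strand was found in 702 of the 32851 promoters of the table (2.14%), and among the 6 shown in Slc26a3 and Fos. The windows of Slc26a3 and Sycn held 1 and 3 CpG dinucleotides and were 39.3% and 50.3% G or C, against a median of 7 CpG and 52.7% over all promoters. Fos held 20 CpG at 58.7%, Ptgs2 16 at 59.3%, Car4 15 at 57.3% and Pyy 8 at 60.7%. Among the 4 genes highest in tumors 2, 3 and 5, CpG numbers thus ran from 1 to 15. Spink4, Tff3, Retnlb and Zg16 had no entry. Promoter features were not compared between wide and steady rows, since 9865 of the 14065 rows with a single name (70.1%) had an entry, under the 80% needed for such a comparison.

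Markers shared by all epithelium varied less and in another way. Of the 18 rows of the pan-epithelial list, 15 had their lowest value in tumor 4, against 22.9% of all rows, and 11 did so after rescaling to a common sum. The list mean was 8.10, 8.03, 8.05, 7.66 and 7.90. Krt8, a keratin of simple epithelium, was at 1543, 1522, 1845, 1211 and 1486, and Lgals4, a galectin of the gut lining, was at 1843, 2079.7, 1911, 1179 and 1954. Lgals4 was the lowest in tumor 4 by a wide gap. Cdx2, the caudal homeobox factor that sets intestinal identity, was at 18.2, 7.58, 5.53, 5.33 and 5.35 (SD 0.69), and its relative Cdx1 at 50.2, 84.9, 69.8, 36.2 and 39.7. Tumor 1 thus had the highest Cdx2 and tumor 2 the highest Cdx1. Among these general markers the median SD was 0.255.

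The list means of stem cell and Wnt target genes differed little between tumors, while the typical gene of each list was wider than rows of like mean. Crypt stem cell genes had list means of 4.85, 4.97, 4.78, 4.92 and 4.77 on the log2 scale. Their median SD was 0.292, 1.88 times that of rows of like mean. Axin2, a feedback inhibitor and general Wnt target (chr11:108920349-108950783), was at 162, 172, 144, 141 and 173 (SD 0.14). Smoc2, a matricellular protein of the stem cell zone, was at 65.2, 92.0, 48.1, 89.9 and 73.7. Lgr5, the R-spondin receptor that marks crypt stem cells, was the widest of the list, at 6.28, 22.6, 14, 22.6 and 18.7 (SD 0.71), with tumor 1 the lowest. Olfm4, another stem cell marker of the gut, was below the minimum with a mean of 0.127.

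Over the 23 rows of Wnt target genes the median SD was 0.294, 1.78 times that of rows of like mean, and the list mean was 4.88, 4.91, 4.78, 4.95 and 4.8. Its range of 0.161 was small beside those of most lists, as was the range of 0.25 after rescaling to a common sum. Notum, a secreted enzyme that inactivates Wnt ligands, was at 402, 443, 283, 344 and 395, and Apcdd1, a membrane inhibitor of the pathway, at 339.5, 306, 285, 287 and 376. Bmp4, a stromal ligand also counted as a Wnt target, was at 25.8, 10, 19.7, 21.5 and 7.68 (SD 0.71), lowest in tumors 2 and 5. Lef1, the transcription factor of the pathway, was at 7.44, 6.96, 3.81, 7.68 and 4.63. None of the 23 reached an SD of 1.

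Wnt ligands passed the minimum in 10 of 19 cases. Wnt6 was the most abundant, at 57.2, 63.5, 58.4, 83.5 and 73.6, and Wnt10a came next, at 37.3, 55, 45.3, 55.6 and 58.4. Their ranges over the 5 tumors met only narrowly, with the highest Wnt10a value just above the lowest Wnt6 value. Wnt5a, a ligand made mainly by stroma and acting outside the β-catenin route, was at 11.2, 6.03, 13.7, 12.4 and 4.33, low in tumors 2 and 5. Wnt7a was at 4.26, 3.67, 1.62, 3.94 and 4.95 and Wnt7b at 0.787, 2.04, 2.64, 2.1 and 3.54. Wnt16 was the widest, at 0.494, 3.47, 1.16, 3.17 and 4.72 (SD 0.81). Tumor 1 had the lowest Wnt7b and Wnt16 values.

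Hedgehog ligands were divided. Shh, the sonic hedgehog ligand (chr5:28456815-28467256), was at 2.7, 25.5, 1.61, 4.54 and 22.4 (SD 1.54), so tumors 2 and 5 stood well above the other tumors. Ihh, the ligand usual for colon epithelium, was at 115, 66.5, 45.6, 44.3 and 44.7 and highest in tumor 1. The receptor and target gene Ptch1 was at 17.5, 9.90, 11.8, 11.6 and 11.8. No other row of the 9 had an SD of 1. Distal Hox genes were steadier, with a median SD of 0.258, apart from the row 9530018H14Rik/Hoxa13 at 5.11, 26.2, 26.6, 16.3 and 31.5, lowest in tumor 1.

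Antimicrobial and Reg genes were wide. Lyz1, the lysozyme of Paneth cells, was at 840.4, 1243, 561, 544 and 663, and the α-defensin row Defa-ps1/Defa24 was at 933, 784, 457, 897 and 406. Reg3g, a lectin against Gram-positive bacteria, was at 9.05, 26.3, 65.6, 17.7 and 54.3 (SD 1.12), lowest in tumor 1 and highest in tumors 3 and 5. Reg4, which marks deep secretory cells of the colon crypt, was at 98.2, 336, 189, 133 and 267. The list mean was 5.22, 6.33, 6.24, 5.64 and 5.89, with tumor 1 the lowest. Tuft cell genes had a median SD of 0.278, with Avil, an actin-binding protein, at 86.5, 69.2, 95.7, 63.7 and 58.8 the most abundant and Dclk1, a kinase that marks tuft cells, at 0.908, 0.990, 0.709, 0.855 and 0.662.

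Genes of injured or fetal-like epithelium ranged widely in level, and 15 of 19 passed the minimum. The row I830127L07Rik/Ly6a/Ly6c1, which holds the regeneration marker Ly6a, was at 546, 460.3, 592, 629.7 and 785, and Anxa1, an annexin of repair, was at 577, 428, 622, 520.5 and 631. The row RP24-299A7.2/Spp1, with the osteopontin gene, was at 9.78, 26.7, 40.5, 111 and 43.4 (SD 1.22), and Ereg, a ligand of the epidermal growth factor receptor, was at 4.50, 2.19, 13.8, 3.62 and 0.953 (SD 1.08). Spp1 was highest in tumor 4 and Ereg in tumor 3. The related ligand Areg was at 34.3, 18.1, 26.5, 13.5 and 13.3.

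Keratins and cornified envelope genes of squamous epithelium, such as that of the anal canal, pointed to different tumors. Krt14, a basal keratin, was at 113, 41.1, 39.9, 26.0 and 15.7, the row Krt4/Krt6a was at 60.9, 9.91, 9.15, 5.33 and 9.85, and Krt15 was at 34.6, 13.4, 5.27, 11.6 and 15.5. All 3 were highest in tumor 1. Ly6d, a marker of stratified epithelium, was at 67.1, 52.5, 127, 173 and 276, and Sprr1a, a precursor of the cornified envelope, was at 17.2, 35.5, 47.6, 48.9 and 113, both highest in tumor 5. The defining basal genes Krt5, with a mean of 0.122, and Trp63, with 0.0121, were below the minimum. Of the 21 genes of the list, 10 passed it, with list means of 3.77, 3.24, 3.09, 3.21 and 3.47, and the part of squamous tissue in other results was not tested.

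Inflammatory mediators were highest in tumor 3. Of 17 rows of cytokines, chemokines and related enzymes, 14 had their highest value there, against 25.7% of all rows, and in 11 tumor 3 alone was the high tumor, against 9.16%. The list mean was 3.02, 2.85, 3.94, 3.01 and 2.90, with tumors 1, 2, 4 and 5 close together. Il1b, the interleukin-1β gene (chr2:129364570-129371139), was at 41.5, 41.1, 86.2, 30.8 and 27.1, and Tnf, the tumor necrosis factor gene, was at 10.2, 11.3, 20.5, 12 and 12.8. Il6 (chr5:30013114-30019981) was at 0.0806, 0.112, 4.21, 0.521 and 0, near 0 in the other tumors. Ptgs2, the inducible cyclooxygenase (chr1:150100031-150108227), was at 12.8, 5.19, 43.5, 9.94 and 4.89 (SD 1.18). The row Il11/Tmem238, with the interleukin of the same receptor family as Il6, was at 16.4, 19.5, 52.8, 24.6 and 21.4.

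Chemokines that draw neutrophils were part of this group. Cxcl5 (chr5:90759360-90761624) was the most abundant, at 292, 78.7, 352, 134 and 158, high in tumors 1 and 3. Cxcl1 was at 12.9, 9.35, 37.2, 13.5 and 13.9, and the row Cxcl2/Cxcl3 was at 24.2, 30.6, 72.8, 25.3 and 25.5. Chemokines that act on other cells did not share the order, with Ccl3 at 7.32, 9.77, 3.23, 7.5 and 4.29 and Ccl4 at 3.35, 7.10, 1.81, 1.77 and 2.45, lowest or nearly so in tumor 3. Ccl5, a T cell chemokine, was at 1.87, 0, 0.277, 0.994 and 0.824 and highest in tumor 1.

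Neutrophil markers were also highest in tumor 3 on average. Of 14 rows, 9 were highest in tumor 3 and 9 were lowest in tumor 2, against 25.7% and 16.5% of all rows. S100a8, a subunit of the calprotectin complex of neutrophils, was at 126, 55.1, 277, 159.5 and 95.9 and its partner S100a9 at 186, 73.4, 357, 199.7 and 117. The row Retnla/Retnlg was at 7.06, 2.01, 24.4, 9.12 and 5.72 (SD 1.11). Ly6g, a surface marker of neutrophils, did not follow them, at 41.1, 91.8, 105, 87.8 and 167 with tumor 5 the highest. Averaged over the list, values were 3.82, 3.19, 4.37, 3.73 and 3.50.

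The following genes of inflamed tissue belong to no list and were chosen after their values were seen. Lcn2, the siderophore-binding lipocalin, was at 18.1, 47.2, 271, 223 and 108, and Lrg1 was at 3.30, 13.5, 72.1, 31.9 and 27.3. Saa3, a serum amyloid made in inflamed tissue, was at 60.6, 24.5, 245, 119.6 and 40.3, and Hp, the haptoglobin gene, was at 5.84, 6.25, 31.8, 31.1 and 4.87. Tumors 3 and 4 were the highest in these 4, unlike Saa1 above, which was lowest in tumor 4. Il1rl1, the interleukin-33 receptor, was at 47.2, 26.1, 145, 101 and 31.6. Selp, an adhesion molecule of activated endothelium, was at 1.89, 0.652, 16.4, 4.03 and 1.54 and highest in tumor 3.

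Immediate early genes, which cells switch on within minutes of a stimulus, were highest in tumor 3 for 19 of 24 rows and lowest in tumor 4 for 15. Over all rows these shares were 25.7% and 22.9%. Averages of the list were 4.71, 4.55, 5.18, 4.18 and 4.36. Fos was at 81.3, 27.9, 156, 23.2 and 25.8 (SD 1.2), and Fosb (chr7:19302696-19310051) was at 13.4, 5.15, 21.7, 1.67 and 1.91 (SD 1.37). Tumors 1 and 3 were the high tumors of both. Nr4a1, an orphan nuclear receptor, was at 32.0, 13.6, 38.9, 7.32 and 8.24, and Egr1 was at 18.9, 8.53, 28.7, 7.66 and 7.34, again with tumors 1 and 3 high. Jun, which was the steadiest of the list, was at 114, 133, 109, 111 and 122, and Junb, the most abundant by mean, was at 150, 134, 195, 127 and 135.

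Matrix metalloproteinases were high in tumors 3 and 4. In 5 of 12 rows exactly these were the high tumors, against 2.47% of all rows. In 2 more, tumor 5 was high with them, against 2.42%. As a mean of logs the list was at 4.87, 4.77, 5.56, 5.51 and 4.83. Tumors 3 and 4 changed places as the highest under rescaling to a common sum and under quantile normalization. The stromelysin row Mmp10/Mmp3 was at 48.0, 35.0, 211, 103 and 27.2 (SD 1.2), and Mmp13, a collagenase, was at 32.4, 29.6, 164, 75.4 and 26.9 (SD 1.1). Mmp7, matrilysin of the epithelium, was the most abundant, at 292, 317, 484, 427 and 326. Timp1, an inhibitor of these enzymes, was at 17.8, 14.9, 43.0, 49.6 and 27.9.

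Metabolic lists were also highest in tumor 3. Cholesterol synthesis genes had their highest value in tumor 3 in 16 of 18 rows, against 25.7% of all rows. In 12 rows tumor 3 alone was the high tumor, against 9.16%. The most abundant was Msmo1, a sterol oxidase, at 88.3, 78.4, 129, 100.4 and 106. Hmgcs1, the cytosolic synthase of an early step of the pathway, was at 70.0, 60.2, 119, 81.8 and 77.5, and Lss, which closes the sterol rings, was at 16.9, 13.3, 36.4, 16.0 and 21.3 (SD 0.53). On average the list stood at 5.13, 4.97, 5.77, 5.25 and 5.32.

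Glycolysis genes had 12 of 14 highest values in tumor 3, against 25.7% of all rows. The list mean was 5.98, 5.98, 6.33, 5.95 and 6.0, and the median SD was 0.173. Under the 3 rescalings 9 to 10 of the 14 were highest in tumor 3. Ldha, lactate dehydrogenase A, was at 363, 293, 427, 330.4 and 357, and Hk2, a hexokinase, was at 25, 28.5, 51.7, 23.5 and 28.9. Among hypoxia genes Vegfa, the vascular growth factor, was at 18.1, 15.9, 33.6, 16.8 and 14.7. In the unfolded protein response list 11 of 15 rows were highest in tumor 3, against 25.7% of all rows. Under the 3 rescalings 7 to 9 were. Hspa5, the main chaperone of the endoplasmic reticulum, was at 237, 229, 351, 278 and 239. Heat shock genes differed little, with a median SD of 0.178.

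Among rows with known gene names, antibody genes were wide. Immunoglobulin variable segments, of which each plasma cell clone expresses 1 per chain, filled 111 rows. Their median SD was 1.09, and 69 of 111 (62.2%) had an SD of at least 1, against 1.91% of all rows. The summed FPKM of the segments was 220, 157, 1401, 493 and 419 in tumors 1 to 5. In tumor 3, 68 of 111 rows had their highest value, against 25.7% of all rows. Rows listed at 0 numbered 31 in tumor 1, 42 in tumor 2, 10 in tumor 3, 12 in tumor 4 and 21 in tumor 5. The median segment was at 0.903, 0.603, 6.61, 2.62 and 1.61. Tumor 3 was thus the highest by sum, by median and by number of segments above 0.

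**Figure D4:**
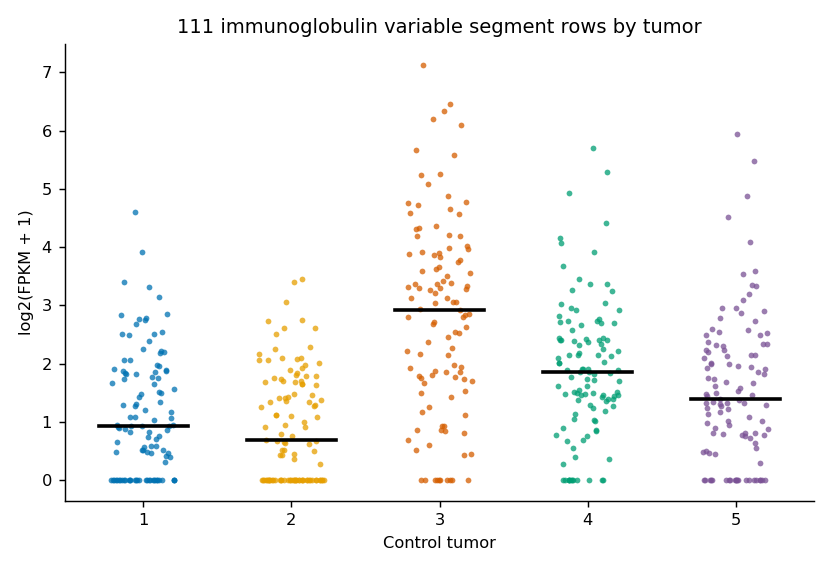
Values of log2(FPKM + 1) of 111 immunoglobulin variable segment rows in the 5 control tumors, each point a row, with the median as a bar. The median of tumor 3 lies above those of the other tumors, and points at 0 are most numerous in tumor 2.

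Heavy chain and kappa segments behaved alike in this. Of 49 heavy chain rows 30 were highest in tumor 3, and of 60 kappa rows 36, against 25.7% of all rows. The segment of highest value differed between tumors. For the heavy chain it was Ighv1-18 in tumor 1, Ighv6-3 in tumor 2, Ighv1-12 in tumor 3, Ighv1-75 in tumor 4 and Ighv1-22 in tumor 5. These made up between 10.3% and 16.9% of the heavy chain sum of their tumor. Ighv1-12 (chr12:114615850-114616318) was at 2.53, 0.350, 86.9, 2.07 and 0. In the kappa chain the row Igkv6-14/Igkv6-15/Igkv6-23 took 26.3% of the kappa sum in tumor 5.

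Constant regions and genes of plasma cells were measured as well. The kappa constant row with Igkc was at 230.5, 217, 1209, 452 and 487, and the row with Igha, the heavy chain of IgA, was at 178, 177, 862, 349.8 and 340.5. Jchain, which joins IgA dimers, was at 24.5, 26.7, 119, 47.3 and 37.2. Ighm, the heavy chain of IgM, was at 3.17, 2.42, 2.38, 2.56 and 2.13 and Ighg2b at 0.882, 0.706, 8.55, 4.4 and 1.72 (SD 1.06). Mzb1, a chaperone of plasma cells, was at 1.26, 0.854, 6.3, 0.790 and 1.88. Tumor 3 was the highest for each of these but Ighm. Of the 19 genes of the list 12 passed the minimum. Cd79b, the B cell receptor subunit, was at 0.682, 1.01, 0.462, 0.230 and 0.319.

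Interferon-induced genes were highest in tumor 1. Of 27 rows, 19 had their highest value there, against 20% of all rows, and in 12 tumor 1 alone was the high tumor, against 7.71%. In 5 more, tumors 1 and 4 were the high tumors, against 2.57%. Averaged over the list, values were 3.25, 2.52, 2.45, 2.78 and 2.29. Ifit1, an antiviral RNA-binding protein (chr19:34640871-34650009), was at 16.9, 6.98, 3.67, 11.8 and 2.99, and Isg15, the ubiquitin-like modifier, was at 27.2, 10.9, 12.3, 16.5 and 5.55. Tumor 4 came next after tumor 1 in both. The row Ifit3/Ifit3b was at 14, 4.27, 4.74, 8.60 and 2.56, and Oasl2, an antiviral sensor, was at 25, 8.61, 9.98, 10.2 and 9.72. Irf7, which amplifies the type I response, was at 67.9, 52.6, 38.4, 29.3 and 35.0, and Usp18, which restrains it, was at 40.3, 20.8, 26.2, 53.8 and 35.9, highest in tumor 4.

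MHC class II genes, which antigen-presenting cells use to show peptides to T cells, were lowest in tumor 3 in 6 of 7 rows, against 19.2% of all rows. Averages of the list were 5.05, 4.54, 4.12, 4.93 and 4.43. The row Cd74/Mir5107, with the invariant chain, was at 208, 147, 131, 236 and 174, and H2-Aa was at 130.3, 85.7, 55.1, 114 and 78.4. Tumors 1 and 4 held the highest values of all 7. T and NK cell genes were low, with 9 of 20 past the minimum. Gzma, a granzyme of killer cells, was at 4.61, 0.352, 0.194, 0.0622 and 0.377, and Cd4 was at 2.86, 1.43, 2.23, 5.09 and 3.75. Gzma was high in tumor 1 and Cd4 in tumor 4. Cd8a was below the minimum with a mean of 0.0923.

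Macrophage genes were highest in tumor 4. Of 17 rows, 14 had their highest value there, against 18.0% of all rows and under each of the 5 settings, and in 6 tumor 4 alone and in 6 tumors 1 and 4 were the high tumors, against 5.09% and 2.57%. After rescaling to a common sum, tumor 4 alone was the high tumor of 10. Apoe, the lipid carrier that macrophages secrete, was at 805, 500, 379, 999.9 and 517, and Lyz2, the lysozyme of myeloid cells (chr10:117277331-117282321), was at 249, 238, 179, 602 and 294 (SD 0.65). Csf1r, the growth factor receptor of the lineage, was at 13.0, 8.04, 9.46, 16.2 and 9.22, and C1qa, of the complement C1q complex, was at 77.2, 58.2, 52.9, 106 and 59.6. Cd14, the endotoxin co-receptor, was an exception, at 43.7, 48.9, 83.4, 58.9 and 60.3 with tumor 3 the highest. As a mean of logs the list was at 4.47, 4.13, 4.2, 4.95 and 4.27.

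Other myeloid and blood cells differed again. Itgax, an integrin of dendritic cells, was at 10.7, 6.01, 4.98, 10.7 and 7.55. The mast cell protease row Cma2/Mcpt1/Mcpt2 was at 10.3, 16.1, 9.86, 21.8 and 4.18, and Cma1, the chymase, was at 5.07, 9.18, 5.50, 5.93 and 19.2. Tumor 5 was lowest in the first and highest in the other. Hemoglobin rows were highest in tumor 1 and lowest in tumor 5 for the row Hba-a1/Hba-x, at 439, 206, 255, 174 and 51.3 (SD 1.13), and for the row Hbb-bh3/Hbb-bs, at 432, 143, 207, 158 and 96.4. The erythrocyte list mean was 4.90, 3.86, 3.79, 3.88 and 3.24.

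Stromal genes were highest in tumors 3 and 4 and lowest in tumor 5. Of 18 collagen rows, 13 were lowest in tumor 5, against 17.2% of all rows, and 12 were highest in tumor 3, against 25.7%. The collagen list mean was 3.80, 3.39, 4.36, 4.02 and 3.04. The row AC125167.1/Col3a1, with the fibrillar collagen of loose stroma, was the most abundant, at 308, 150.2, 726, 392 and 184 (SD 0.90), and Col1a1 was at 28.9, 21.2, 54.8, 38.4 and 12.3. Col4a1, a collagen of basement membranes, was at 38.0, 23.7, 61.0, 36.8 and 14.6. In 5 of 18 rows tumors 1, 3 and 4 were the high tumors, against 2.63% of all rows.

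Fibroblast markers overlapped with these, since they include several collagens. Tumors 1, 3 and 4 were the high tumors of 6 of 22 rows, against 2.63% of all rows. Dcn, the proteoglycan decorin, was at 87.5, 69.5, 166, 188 and 56.9, and Fn1, fibronectin, was at 107, 151, 198, 193 and 116. The platelet-derived growth factor receptor row Mir7025/Pdgfra was at 22, 8.99, 16.0, 20.1 and 7.87. Fibroblast list means were 4.07, 3.64, 4.59, 4.42 and 3.41. Among 16 endothelial rows 12 were highest in tumor 3 and 11 were lowest in tumor 5, against 25.7% and 17.2% of all rows. Pecam1, the junction protein of endothelium, was at 7.08, 5.63, 15.4, 8.75 and 4.89, and Emcn, a sialomucin of capillaries and veins, was at 6.74, 2.41, 12.4, 5.44 and 2.35 (SD 0.84).

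Of 15 smooth muscle rows 11 were highest in tumor 3 and 9 were lowest in tumor 1, against 25.7% and 24.3% of all rows. List averages were 3.40, 3.71, 4.14, 3.63 and 3.72. In 5 rows tumors 3 and 4 and in 4 rows tumor 3 alone were the high tumors, against 2.47% and 9.16% of all rows. Flna, an actin cross-linker found in many cells, was at 126, 126, 174, 168 and 118, and Acta2, the smooth muscle actin also made by myofibroblasts, was at 30.5, 40, 54.1, 53.4 and 39.3, with tumors 3 and 4 high in both. Des, the intermediate filament of muscle, was at 2.0, 4.61, 8.25, 1.13 and 6.39, and Cnn1, calponin, was at 2.16, 4.90, 6.75, 1.56 and 5.07. Des and Cnn1 were the only 2 of the 15 with tumors 2, 3 and 5 as high tumors, the set found for many goblet and enteroendocrine genes, and the part of muscle in those results was not tested.

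Cell cycle genes were uniform by comparison. The median SD over 24 rows was 0.233, and none reached 1. In 10 of 24 rows tumors 3, 4 and 5 were the high tumors, against 2.42% of all rows. Tumor 2 was the lowest in 15, against 16.5%. After rescaling to a common sum 4 rows were lowest in tumor 2 and 20 in tumor 1. Cdk1, the mitotic kinase, was at 71.7, 72.6, 91.3, 94.5 and 95.2, and Ube2c, of the mitotic ubiquitin ligase route, was at 67.8, 61.2, 81.4, 91.1 and 86.4. Mki67, the gene of the Ki67 antigen, was at 16.1, 18.2, 23.3, 21.2 and 21.8. The replication helicase gene Mcm3 was at 29.3, 31.6, 52.8, 33.9 and 37.3. On average the list stood at 4.72, 4.69, 5.17, 5.08 and 4.96, so that tumors 1 and 2 were the lowest and the whole range was 0.481.

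Smaller lists added single genes to this picture. Stmn2, a microtubule regulator of neurons, was at 15, 1.15, 1.94, 1.82 and 1.16 (SD 1.22) and highest in tumor 1. Fabp4, the fatty acid carrier of adipocytes that endothelium also makes, was at 8.14, 4.84, 9.24, 7.41 and 3.90, and Pck1, the rate-limiting enzyme of gluconeogenesis, was at 0.327, 2.93, 8.08, 0.472 and 4.48 (SD 1.21). Pck1 had tumors 2, 3 and 5 as high tumors and Fabp4 did not. Ear2, a ribonuclease of eosinophils, was the single row of its list, at 2.15, 1.27, 0.319, 0.835 and 0.577. Of clock genes Per2 was the widest, at 2.51, 14.2, 9.73, 9.72 and 20.2.

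**Figure D5:**
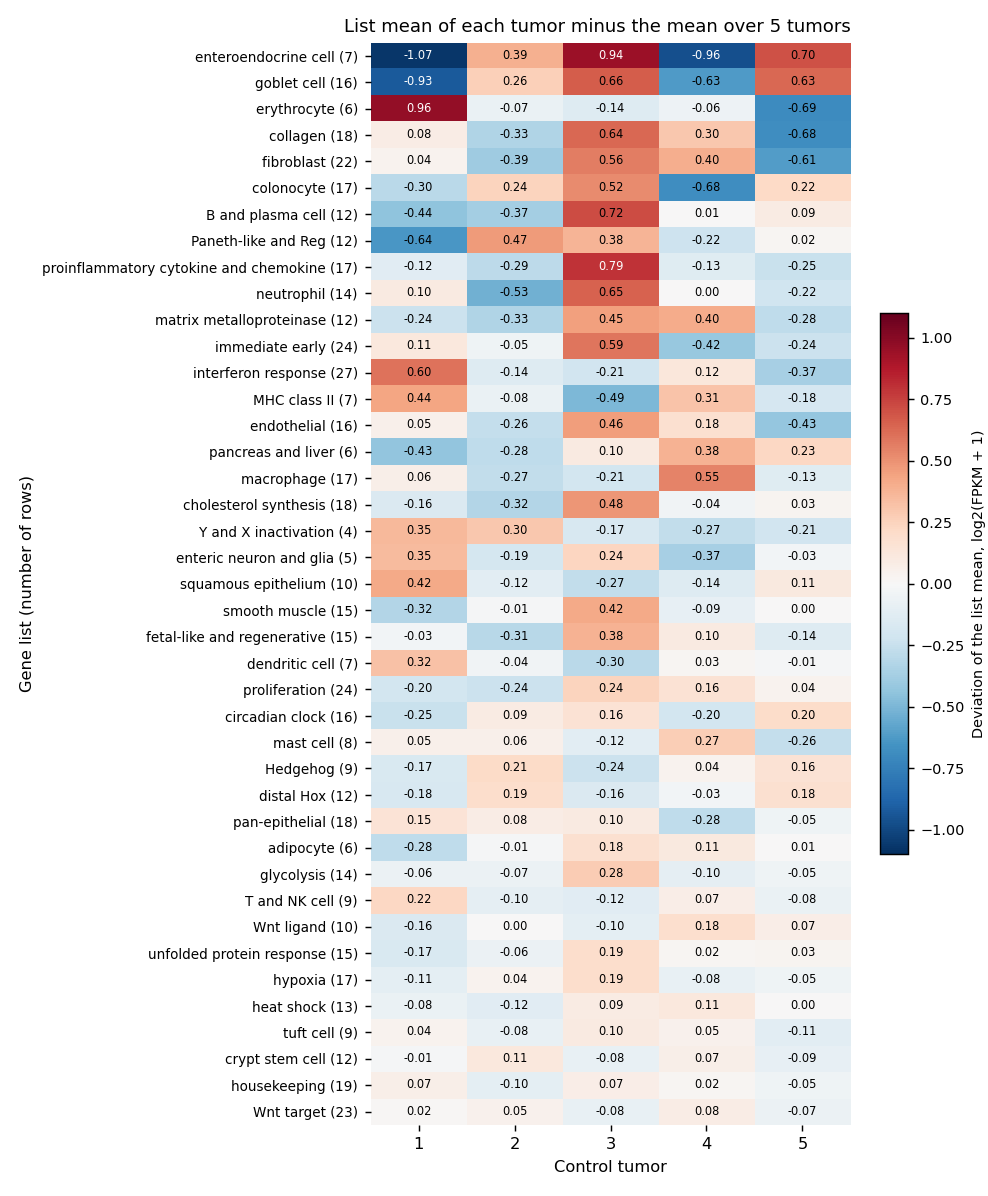
Mean log2(FPKM + 1) of each gene list in each control tumor minus its mean over the 5 tumors, for the 41 lists with at least 4 rows, ordered by the SD of the 5 list means, with the number of rows in brackets. Enteroendocrine and goblet lists have tumors 2, 3 and 5 high, the erythrocyte list next to them is highest in tumor 1, the cytokine list is highest in tumor 3, the interferon list in tumor 1 and the macrophage list in tumor 4, and housekeeping and Wnt target lists are at the bottom.

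All 43 lists had a median SD over trend above 1, and 11 had one above 3, so that the typical list gene was wider than rows of like mean. Of the 669 genes in the lists 536 passed the minimum. The housekeeping list had a median SD of 0.159. Actb, β-actin, was at 1954, 1856, 1828, 1971 and 1761 (SD 0.07). Gapdh, a glycolytic enzyme often used as a reference, was at 9.19, 5.58, 9.56, 7.12 and 6.24, and Ppia, cyclophilin A, at 5.67, 8.16, 4.91, 3.55 and 5.31, far below Actb. Both have many pseudogene copies. Their levels are uncertain, and the part of these copies in them was not tested. B2m, the light chain of MHC class I, was the widest of the list, at 445, 257, 209.7, 366 and 268 (SD 0.43), with tumors 1 and 4 high as in MHC class II.

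The steadiest rows of at least 10 FPKM were of ordinary cell functions. Otud4, a deubiquitinase (chr8:79639618-79677724), was at 17.4, 17.3, 17.0, 17.2 and 17.2, an SD of 0.01. Rabif, a chaperone of Rab GTPases, was at 15.4, 15.3, 15.5, 15.2 and 15, and Zzz3, of a histone acetyltransferase complex, was at 15.6, 15.9, 15.4, 15.6 and 15.8. Grpel1, Capn7, Usp47, Tnpo2, Stau1, Setdb1 and Coa5 completed the 10 steadiest, with SDs of at most 0.14 times those of rows of like mean.

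Y-linked genes were present in all 5 tumors, while the X inactivation genes Xist, with a mean of 0.188, and Tsix, with 0.00417, were below the minimum. Eif2s3y was at 44.7, 46.6, 30.4, 41.9 and 45.1, Uty at 11.5, 9.92, 6.99, 10.7 and 9.39 and Kdm5d at 9.08, 9.37, 5.96, 7.88 and 8.66, each lowest in tumor 3. Ddx3y, a helicase gene of the same chromosome (chrY:1260771-1286629), went its own way at 14, 12.7, 10.5, 2.45 and 2.89 (SD 1.03), low in tumors 4 and 5. The methods state that females were preferred, and the labels give no sex.

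In single tumors, some genes stood far from the other 4. A tumor was called departing for a row when its gap to the nearest other tumor took more of the range of the 5 log2 values than Dixon's 95% critical value, which chance exceeds in about 1 of 20 rows. This held for 863 of 15050 rows, 5.73%, and for 186 of the 2311 rows with a range of at least 1 on the log2 scale. Tumor 1 departed upward in 151 rows and downward in 116, tumor 3 in 152 and 105, tumor 4 in 68 and 102, tumor 2 in 62 and 39, and tumor 5 in 33 and 35. Most departing rows were thus in tumors 1 and 3.

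Widest among the upward departures of tumor 1 were Prap1, a secreted acidic protein (chr7:140093395-140097200), at 21.7, 0, 0.158, 0.140 and 0.158, Tgm4, the prostate transglutaminase (chr9:123034726-123067561), at 118, 4.78, 5.62, 5.18 and 1.90, and Adam28, a membrane protease, at 10.3, 0.783, 0.686, 0.562 and 0.389. Downward in tumor 1, apart from Psg26, were the row Ctdsp2/Mir26a-2/Mir546, at 65.4, 855, 1240.0, 892 and 803, and Isl1, a homeodomain factor (chr13:116298281-116309689), at 2.67, 21.6, 18.7, 17.2 and 25.9. In tumor 4 the row Fastk/Gm22333 was at 55.2, 65.5, 59.4, 2272 and 62.7. Mep1a, a brush border protease, was low in tumor 4, at 21.1, 22.5, 21.5, 7.83 and 17.2. In tumor 5 Oxnad1, an oxidoreductase gene, was low, at 33.0, 37.9, 40.6, 36.1 and 11.3. In tumor 2 H2-Q5, a gene of the MHC class I family, was high, at 0.860, 3.93, 0.595, 0.474 and 0.265. GENCODE lists H2-Q5 as a polymorphic pseudogene, and its values were low.

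Over all rows, the 4 principal components of the centred log2 values took 36.3%, 26.5%, 21.4% and 15.8% of the variance. On the first, tumor 1 lay at 0.75 and tumor 3 at -0.53, with tumor 5 at -0.35, tumor 4 at 0.19 and tumor 2 at -0.06. By chromosome, median deviations of a tumor stayed within 0.07 on the log2 scale, with the exception of the 4 rows of the Y chromosome.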

How the data were processed

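RNA was prepared with a NucleoSpin RNA kit from 5 fresh frozen control tumors and libraries with a TruSeq Stranded mRNA kit. The submitters' processing notes name FastQC, TopHat2 2.1.1, Cufflinks 2.2.1, Cuffdiff and GRCm38.p5. The authors deposited FPKM values per tumor and gene name. Their methods state that Cuffdiff was also run on unmerged transcripts for comparisons by sample. The annotation release is not given in the sources used here. FPKM divides by transcript length and library size, so values are relative to the other genes of a tumor, and estimates for short transcripts can be large. Read depth is unknown.

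Names with identical values were joined, rows under a mean FPKM of 0.5 were left out, and log2(FPKM + 1) was used for means and SDs (with pandas 2.3.3 and numpy 2.4.6 under Python 3.11.15, and figures with matplotlib 3.10.9). The other 5 tumors entered no value. No test was made. The computation was tested on simulated data. Coordinates came from GENCODE M21 (GRCm38), which matched 95.1% of the names, and promoters from RefSeq (GRCm38.p6).

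Some genes are not reported here. The members and gene lists were chosen with earlier results of these data known. Named genes were the 15 rows of highest mean, the 15 of largest SD, the 10 of largest SD at a mean of at least 50, the 10 of lowest SD over trend at a mean of at least 10, the 2 most abundant and 2 widest rows and the low members of each list, and for each tumor 3 departing rows a side, with rows of only predicted or small RNA names given in the first part only. Some of these are given by count or range, several rows of the parts of largest SD are not given, and others were added after their values were seen. Alternatives were the pseudocount, 3 rescalings, the minimum, counting each name, other measures of spread, another trend window and leaving out each tumor.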

Additional observations from a re-analysis of the deposited data

Results flagged for a closer look

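The 43 gene lists and the 214 rows named in the report were checked for a departing tumor. In 2 lists and 25 rows its gap to the nearest other tumor, as a part of the range, exceeded the 95% critical value of Dixon. Chance exceeds it in about 1 of 20 groups of 5, and 5.73% of all rows did. Some of the 25 rows were named because they departed, so their number is not to be read against that share. Tumor 1 was far above the others for Adam28 (FPKM 10.3), Car1 (FPKM 606), Cdx2 (FPKM 18.2), Gzma (FPKM 4.61), Krt4/Krt6a (FPKM 60.9), Oasl2 (FPKM 25), Prap1 (FPKM 21.7), Stmn2 (FPKM 15) and Tgm4 (FPKM 118). Tumor 1 was far below the others for Ctdsp2/Mir26a-2/Mir546 (FPKM 65.4), Isl1 (FPKM 2.67) and Psg26 (FPKM 0). Tumor 2 was far above the others for H2-Q5 (FPKM 3.93) and Ighv6-3 (FPKM 7.37). Tumor 3 was far above the others for Cxcl1 (FPKM 37.2), Cxcl2/Cxcl3 (FPKM 72.8), Hk2 (FPKM 51.7), Ighv1-12 (FPKM 86.9), Il6 (FPKM 4.21) and Vegfa (FPKM 33.6). Tumor 3 was below the others for Eif2s3y (FPKM 30.4), where the whole range was narrow. Tumor 4 was far above the others for Fastk/Gm22333 (FPKM 2272). Tumor 4 was below the others for Lgals4 (FPKM 1179) and Mep1a (FPKM 7.83). Tumor 5 was far below the others for Oxnad1 (FPKM 11.3). As lists, glycolysis genes averaged 6.33 and proinflammatory cytokines and chemokines 3.94 on the log2(FPKM + 1) scale in tumor 3, above the other 4 tumors. After rescaling to a common sum, the glycolysis list deviated from its mean by -0.175, 0.0148, 0.227, -0.0923 and 0.0254 in tumors 1 to 5. The gap of tumor 3 was then a smaller part of the range, under the critical value.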

How the results depend on the processing

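The number of rows with an SD of at least 1, 287, was 711 with a pseudocount of 0.1 and 189 with a minimum mean FPKM of 5, in the latter where fewer rows enter. The share of the 10 most abundant rows, 36.4%, was 43.0% with each gene name counted and 11.4% with rows of a small RNA gene name left out, a choice made after seeing the data. So were the counts of list rows by their high tumors, of which macrophage rows with tumor 4 alone went from 6 to 10 after rescaling to a common sum, and the cause was not tested.

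Leaving out each tumor in turn gave 15010 to 15034 rows past the minimum, 35.6% to 37.1% in the 10 most abundant rows, a median SD of 0.178 to 0.193, 247 to 319 rows with an SD of at least 1, 764 to 908 departures and 39.2% to 45.9% of the variance on the first component. Counts by high tumors were 10 to 13 for goblet, 6 in each case for enteroendocrine, 6 to 11 for colonocyte, 11 to 12 for cytokine, 12 to 14 for cholesterol, 10 to 19 for interferon, 6 to 12 for macrophage, 11 to 15 for proliferation and 5 to 8 for metalloproteinase rows. With a tumor left out, sets that differ only in that tumor can become the same set. Shares over all rows were not computed for these settings, so a higher count there is not a stronger result. Rescaling to a common sum moved tumor medians by -0.02 to 0.16 on the log2 scale. The tumor of highest list mean held under all 5 settings for 35 of 43 lists and the lowest for 32. No paired analysis was possible because no groups are compared. The SDs rest on 5 tumors, and counting error cannot be separated from them since read depth is unknown.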
